A study of Mus musculus with 6 samples.

Results

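Expression of 36 ribosome biogenesis genes was examined in mouse T cells that either carried or lacked CTLA-4. The genes were named as a list of nucleolar assembly factors, by a rule that uses no difference between genotypes. The list was, however, chosen with earlier results of these data known. A gene was read from the probe set with the highest mean among those that the array annotation assigns to that gene alone. Of the 36 genes, 35 had such a probe set, out of 18193 genes named on the array, and all 35 passed the filter on dim signals that kept 11990 genes. The remaining gene, Mrto4, is read only by a probe set that it shares with its pseudogenes.

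The cells were 5C.C7 T cells, whose transgenic receptor recognises a moth cytochrome c (MCC) peptide. Donors of both groups were RAG2-/- and carried the CD45.1 allele, and they differed in being wild type or CTLA-4-/- (CTLA-4 KO), so that CTLA-4, an inhibitory receptor of activated T cells, was missing from the transferred cells. Cells of both groups went into B10.A recipients, were activated there by giving the MCC peptide together with LPS, and were sorted after 4 days. The age and sex of the mice, any pooling, and the markers used for sorting are not given in the sources used here. Each group had 3 Affymetrix arrays, each made from a 2 µg input of total RNA, and values are the deposited linear intensities. With so few arrays, the precision of each value is limited.

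Ribosome biogenesis starts in the nucleolus, where RNA polymerase I transcribes a long precursor of the ribosomal RNAs. Small nucleolar ribonucleoproteins (snoRNPs) modify and fold this precursor, while separate sets of assembly factors cut it and build the small and the large subunit around it. T cells enlarge their nucleoli and raise ribosome production when they are activated, before and during clonal division. The genes are ordered here by these roles, as polymerase I, snoRNP, general nucleolar factors, small-subunit assembly and large-subunit assembly.

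The arrays had equal trimmed means by construction, and their medians spanned 62.1 to 75.2. Ctla4 itself stood at 4902 ± 385 on wild type arrays and 795 ± 14.4 in CTLA-4 KO arrays (mean ± SD, n = 3). T cell markers were high in all arrays, with a sum over 7 of 8 listed genes of 52605 to 60919 on wild type arrays and 54608 to 55521 in CTLA-4 KO. Over the 7 measured of 8 B cell markers, the sum was 244 to 451 and 134 to 320, with 5 of them below the floor of the filter, and over the 9 myeloid markers it was 533 to 561 and 471 to 635, with 2 below the floor. The CD8 genes summed to 262 to 422 and 315 to 513, and 3 of 4 erythroid markers to 101 to 107 and 49.95 to 113.02. By limma with adjustment over all tested probe sets, none of these marker genes passed the test between genotypes without a block. With the replicate number as a block, 1 of the 7 T cell markers, Cd3g, a chain of the T cell receptor complex, fell. It went from 8021 ± 933 to 6260.5 ± 155, a log2 difference of -0.35 (limma adjusted p = 0.122, and 0.029 with the block). Every CTLA-4 KO array of it lay below every wild type array. Among the other cell type markers, Itgax (myeloid), Epor (erythroid) and 1 B cell marker also lay below in every CTLA-4 KO array. Cd68 (myeloid) lay above, at 83.1 ± 22.5 on wild type arrays and 131.9 ± 6.2 in CTLA-4 KO. Of all tested genes, 12.2% lay above and 10.6% below in this way. Of the 7 T cell markers, 4 had a positive and 3 a negative difference, with a median of 0.08. Cd3e, of the same complex, differed by 0.18 with overlapping groups.

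All 35 measured genes had a higher mean log2 signal in CTLA-4 KO than in wild type cells, by a small amount. The log2 difference (CTLA-4 KO minus wild type, on the scale of log2(intensity + 16)) ranged from 0.10 to 0.61, with a median of 0.33, a fold of 1.26, against a median of 0.00 over all 11990 tested genes. Of all tested genes, 50.3% had a positive difference, and 10.5% had one at least as large as the median of the biogenesis genes. In 28 of the 35 genes every CTLA-4 KO array lay above every wild type array, a pattern found in 12.2% of all tested genes.

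Few genes passed the test singly. By limma with Benjamini-Hochberg adjustment over all tested probe sets, 1 of the 35 genes, Nolc1, rose at an adjusted p of 0.05, and none fell, where 1.19% of all tested genes were called higher and 0.5% lower (1.69% in either direction). At an unadjusted p of 0.05, 21 of the 35 were higher and 0 lower, beside 9.42% and 7.11% of all tested genes. Arrays with the same replicate number deviated together, and with the replicate number as a block 10 of the 35 rose and 0 fell, where 5.48% of all tested genes were called higher and 3.44% lower. Those 10 genes were Bysl, Ebna1bp2, Ncl, Nip7, Nolc1, Nop16, Nop58, Pes1, Rrs1 and Wdr12. Over all genes the count of calls was 143 higher and 60 lower, and 228 higher and 48 lower with arrays centred on their medians.

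The shift was spread over the arrays rather than carried by 1 of them. Relative to the wild type mean of each gene, the median of the 35 genes was -0.00056, 0.03 and -0.0012 on the log2 scale in wild type arrays 1, 2 and 3. It was 0.35, 0.29 and 0.30 in CTLA-4 KO arrays 1, 2 and 3. The highest of the 6 arrays was a CTLA-4 KO array in 34 of the 35 genes, namely array 1 in 16, array 2 in 7 and array 3 in 11, and the exception was Tsr1, which was highest in wild type array 2. Within the pairs of equal number the median difference was 0.31, 0.24 and 0.34, and 31 of the 35 genes were higher in all 3 pairs, beside 23.3% of all tested genes. Since the RNA came from sorted bulk cells, more cells in an active state and more of these transcripts per cell cannot be told apart.

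**Figure D1:**
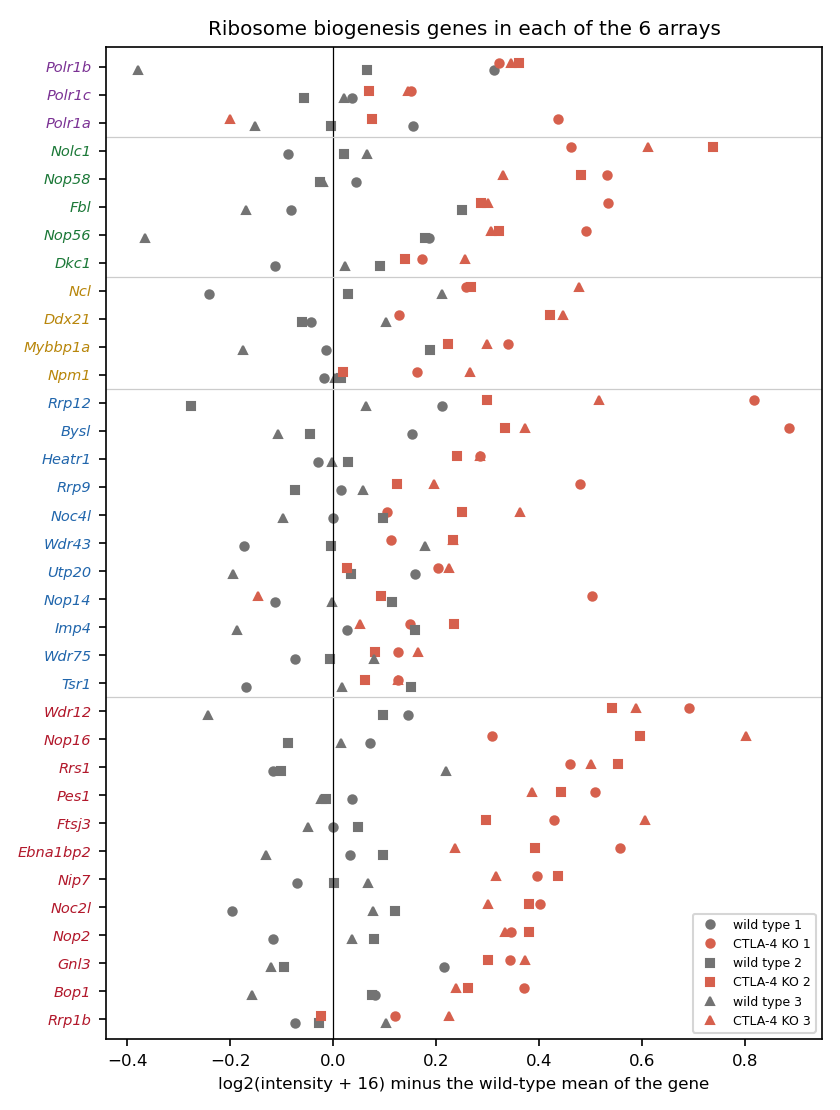
Log2 signal of each biogenesis gene on each of the 6 arrays, minus the mean of its 3 wild type arrays, grouped by role, with 1 point per array. CTLA-4 KO points lie mainly to the right of wild type points, with no overlap in 28 of 35 genes.

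**Figure D2:**
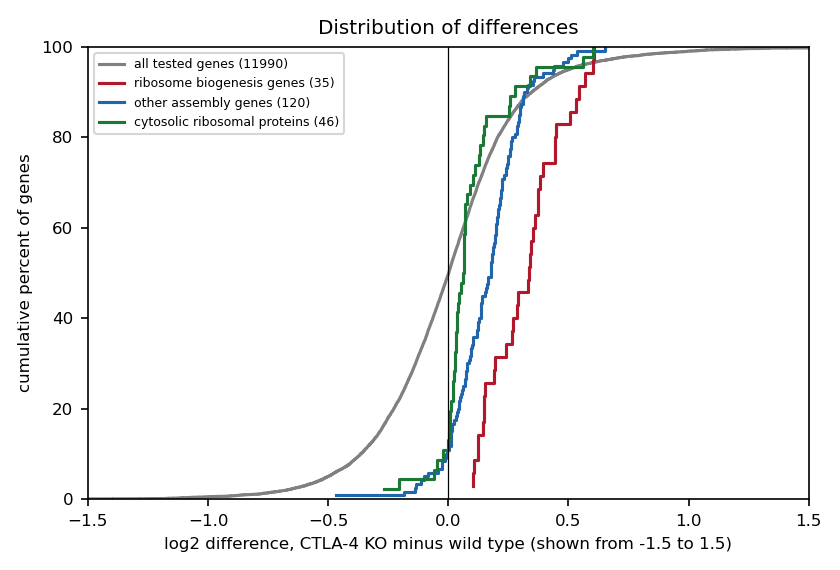
Cumulative percent of genes (vertical axis) against the log2 difference, CTLA-4 KO minus wild type, over all 11990 tested genes, the 35 biogenesis genes, 120 other assembly genes and 46 cytosolic ribosomal protein genes (1 curve each, in steps of 1 gene). The curve of all genes crosses its middle at 0.00, the other assembly genes at 0.18, the ribosomal protein genes at 0.06 and the biogenesis genes, which lie between 0.10 and 0.61, at 0.33.

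Proliferation genes moved with the genotype, whereas ratios of RNA integrity overlapped between the groups. All 7 measured proliferation genes were higher in every CTLA-4 KO array than in every wild type array, beside 12.2% of all tested genes. By limma 5 of the 7 rose, beside 1.19%. Their summed intensity was 7766 to 9080 on wild type arrays and 13002 to 19803 in CTLA-4 KO. Mki67, a marker of cycling cells, rose from 3160.2 ± 289.5 to 7013 ± 1469 (limma adjusted p = 0.00989, n = 3 arrays a group). The median log2 difference of these 7 genes was 1.16, 1.29 and 0.90 in pairs 1, 2 and 3, and the part of proliferation in the shift of the biogenesis genes was not tested. The ratio of 5' to 3' Actb signal, a sign of RNA integrity, was 0.418, 0.410 and 0.584 on wild type arrays and 0.567, 0.691 and 0.544 in CTLA-4 KO arrays 1, 2 and 3. The same ratio for Gapdh was 0.103, 0.096 and 0.250 on wild type arrays and 0.109, 0.205 and 0.178 in CTLA-4 KO arrays. With the Actb ratio as a term in the fit, the median difference of the biogenesis genes was 0.32. In that fit 0 of the 35 genes were called and 16 were at an unadjusted p of 0.05. The part of RNA integrity in the shift was not tested.

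Promoter sequence was compared because most of the genes lay higher together. RefSeq windows of 300 bases, from 250 before to 50 after the start, were found in the GRCm38.p6 table for 31 of the 36 genes. The windows were searched on both strands for CACGTG, the canonical E-box letters, for CCGGAAG, the core letters of ETS family sites, and for TATAAA. The letters CACGTG were present in 7 of the 31 (22.6%), in Imp4, Mybbp1a, Nop2, Pes1, Tsr1, Utp20 and Wdr43, beside 11.5% of tested genes with a window and 7.2% of all 32851 windows. CCGGAAG was present in 8 (25.8%), in Ebna1bp2, Heatr1, Nip7, Noc2l, Nolc1, Nop2, Polr1c and Tsr1, beside 20.1% of tested genes and 8.9% of all windows, and TATAAA in 2 (6.5%), Dkc1 and Pes1, beside 8.8% and 13.6%. Of 100 other assembly genes with a window, 16 held CACGTG, 49 CCGGAAG and 6 TATAAA, so that CCGGAAG was more frequent there than in the 31. The 7 genes with CACGTG had a median log2 difference of 0.19, the 23 measured genes with a window lacking it 0.34, and the 5 measured genes without a window 0.37. This difference between the medians was not tested. A gene with several windows was counted once, and no match overlapped a match of another motif. A match is a description of the letters in the window and not a bound site. The 125 bases before the start are shown for Nolc1 (chr19:46075722-46075846), the gene that passed the test, for Nop2 (chr6:125131758-125131882), which holds both motifs, for Nip7 (chr8:107056752-107056876), called with the block, and for Imp4 (chr1:34439704-34439828), which holds CACGTG and had a small difference. All 4 are on the plus strand of GRCm38.p6, and capitals mark CACGTG and CCGGAAG.
Nolc1: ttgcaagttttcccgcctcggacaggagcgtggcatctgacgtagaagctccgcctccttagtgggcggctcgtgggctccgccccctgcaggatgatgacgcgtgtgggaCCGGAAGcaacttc
Nop2: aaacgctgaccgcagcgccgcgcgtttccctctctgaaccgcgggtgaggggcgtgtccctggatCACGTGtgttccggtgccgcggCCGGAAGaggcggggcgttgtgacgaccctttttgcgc
Nip7: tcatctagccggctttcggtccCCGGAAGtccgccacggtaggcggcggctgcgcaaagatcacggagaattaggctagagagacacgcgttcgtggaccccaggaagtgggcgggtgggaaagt
Imp4: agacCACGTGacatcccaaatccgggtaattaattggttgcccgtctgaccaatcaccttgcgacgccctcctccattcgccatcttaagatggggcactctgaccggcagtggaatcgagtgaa

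The 3 polymerase I genes had the smallest median log2 difference of the 5 classes, 0.12, and none was called in either fit. Polr1b, a large core subunit of the enzyme, was at 709, 594 and 433 on wild type arrays and 713, 734 and 726 in CTLA-4 KO arrays. The groups did not overlap, but wild type array 1 lay just under the lowest CTLA-4 KO array, and the difference was 0.34 ± 0.17 (SE, limma adjusted p = 0.377). Polr1c, a subunit shared with RNA polymerase III, was at 3388, 3175 and 3353 and then at 3673, 3467 and 3655. Its groups also did not overlap, with a difference of 0.12 ± 0.09 (limma adjusted p = 0.565). This probe set is marked as shared between transcripts. A dimmer probe set of Polr1c, not so marked, was at 886, 876 and 1713 and then at 1139, 1134 and 1132. Its groups overlapped, with a difference of 0.04 ± 0.22. Polr1a, the largest subunit, was at 669, 597 and 538 on wild type arrays and 816, 632 and 519 in CTLA-4 KO. The lowest and the highest of its 6 arrays were both CTLA-4 KO, and its difference of 0.10 had a 95% interval of -0.28 to 0.49. Without CTLA-4 KO array 1, its difference was -0.06.

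The 5 snoRNP genes had a median log2 difference of 0.37. In all 5 every CTLA-4 KO array lay above every wild type array, beside 12.2% of all tested genes. With the replicate block 2 rose, beside 5.48%. Nolc1 encodes a phosphoprotein of the nucleolus that chaperones snoRNPs, and its promoter is the first shown above. It was at 932, 1006 and 1038 on wild type arrays and 1372, 1665 and 1523 in CTLA-4 KO arrays. The lowest CTLA-4 KO array was well above the highest wild type array, and the 3 pairs differed by 0.55, 0.72 and 0.55. The difference was 0.60 ± 0.12, a fold of 1.52, with a 95% interval of 0.34 to 0.87 (limma adjusted p = 0.0402, and 0.003 with the block). Leaving out any 1 of the 6 arrays ended this call, with limma adjusted p-values of 0.0526 to 0.226.

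Nolc1 is also read by 2 dimmer probe sets, and they did not show the same size. The first was at 175, 158 and 186 on wild type arrays and 230.0, 163 and 138 in CTLA-4 KO arrays, a difference of 0.00 ± 0.21 with overlapping groups. The other was at 225, 199 and 149.8 and then at 354, 255 and 197, a difference of 0.44 ± 0.23 with CTLA-4 KO array 3 below wild type arrays 1 and 2. Averaged over its probe sets, Nolc1 was not called (limma adjusted p = 0.215).

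Nop56, Nop58 and Fbl form the core of the box C/D snoRNPs, which guide ribose methylation of ribosomal RNA, with Fbl (fibrillarin) as the methyltransferase. Nop58 was at 739.5, 704 and 707 on wild type arrays and 1044, 1008 and 905 in CTLA-4 KO arrays, with narrow spread in each group. Its difference was 0.45 ± 0.12 (limma adjusted p = 0.106, and 0.0211 with the block). Nop56 was at 1624, 1613 and 1103 and then at 2008, 1786 and 1767, where wild type array 3 was the low one. Fbl was at 4132, 5212 and 3890.4 and then at 6346, 5342 and 5397, and wild type array 2 came within reach of the CTLA-4 KO arrays. Both differed by 0.37, with limma adjusted p-values of 0.274 and 0.183. Both probe sets are marked as shared between transcripts. Dimmer probe sets, not so marked, differed by 0.43 without overlap in Nop56 and by 0.35 with overlapping groups in Fbl. Dkc1 (dyskerin), the pseudouridine synthase of the box H/ACA snoRNPs, had the smallest difference of the 5 on the probe sets used, 0.19 ± 0.10. It was at 2537, 2923 and 2789 on wild type arrays and 3097, 3027 and 3281 in CTLA-4 KO. A dimmer probe set of Dkc1 differed by 0.47 ± 0.16, with groups that did not overlap. Another differed by 0.24 ± 0.14, with overlapping groups.

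The 4 general nucleolar genes had a median log2 difference of 0.31. In all 4 every CTLA-4 KO array lay above every wild type array, beside 12.2% of all tested genes. Ncl (nucleolin), an abundant protein that binds the precursor RNA, was at 5554, 6695 and 7606 on wild type arrays and 7851, 7913 and 9144 in CTLA-4 KO arrays. The range within wild type was wider than the gap between the group means, and the difference of 0.33 ± 0.12 passed only with the block (limma adjusted p = 0.219, and 0.0356 with the block). Ddx21, an RNA helicase that acts in polymerase I transcription and RNA processing, was at 1756, 1734 and 1944 and then at 1978, 2428 and 2472. CTLA-4 KO array 1 was close to wild type array 3, and the difference was 0.33 ± 0.12. Mybbp1a, a nucleolar protein that binds Myb, was at 2572, 2961 and 2296 and then at 3287, 3035 and 3197, a difference of 0.29 ± 0.11. Npm1 (nucleophosmin), a nucleolar histone and ribosome chaperone, was at 15364, 15720.0 and 15591 on wild type arrays and 17432, 15763 and 18717 in CTLA-4 KO. CTLA-4 KO array 2 lay just above wild type array 2, and the difference of 0.15 had an interval of -0.04 to 0.34.

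The 11 genes of small-subunit assembly had a median log2 difference of 0.19. In 6 every CTLA-4 KO array lay above every wild type array, beside 12.2% of all tested genes. With the block 1 of the 11 rose, near the 5.48% over all tested genes. Bysl (bystin), which acts late in maturation of the small subunit, was at 533, 462 and 442 on wild type arrays and 897, 606 and 623 in CTLA-4 KO arrays. CTLA-4 KO array 1 was the high one, yet the others also lay above all wild type arrays, and the difference was 0.53 ± 0.17 (limma adjusted p = 0.169, and 0.0189 with the block). Rrp12, which takes part in export of subunit precursors, was at 212, 146 and 189.7 and then at 331, 226 and 265. Its difference of 0.54 ± 0.20 had the widest error of the 35 genes, and it passed neither fit (limma adjusted p = 0.23, and 0.0537 with the block).

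Most of the other genes in this class encode parts of the small-subunit processome, the large particle that forms on the precursor RNA as it is made. Heatr1 was at 2261, 2356 and 2305 on wild type arrays and 2815, 2728 and 2814 in CTLA-4 KO arrays. The spread within each of its groups was small against the gap, with a difference of 0.27 ± 0.09 (limma adjusted p = 0.196). Rrp9, Noc4l and Wdr75 also had groups that did not overlap, with differences of 0.27, 0.24 and 0.12. The probe set of Noc4l is of a type that can cross-hybridise with other transcripts. Dimmer probe sets of Noc4l differed by 0.30 without overlap, and by 0.12 and 0.14 with overlapping groups. A dimmer probe set of Wdr75 differed by -0.11, with overlapping groups. In Wdr43, Utp20, Nop14, Tsr1 and Imp4 the groups overlapped, and the differences were 0.19, 0.15, 0.15, 0.10 and 0.15. The probe sets of Wdr43 and Tsr1 are marked as shared between transcripts. Nop14 was at 443, 522 and 480.3 on wild type arrays and 688, 514 and 433 in CTLA-4 KO. Only CTLA-4 KO array 1 was high, and without it the difference was -0.03. Tsr1, which acts on late small-subunit precursors, was at 3934, 4915 and 4482 on wild type arrays and 4828, 4623 and 4829 in CTLA-4 KO, where wild type array 2 was the highest of all. Of its class it had the smallest difference.

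The 12 measured genes of large-subunit assembly had the highest median log2 difference of the 5 classes, 0.39. In 11 of them every CTLA-4 KO array lay above every wild type array, beside 12.2% of all tested genes. With the block 6 rose, beside 5.48% of all tested genes. None passed without it, although 11 were higher at an unadjusted p of 0.05, beside 9.42%. Pes1, Bop1 and Wdr12 form a complex that processes the precursor of the large-subunit RNAs. Wdr12 was at 922, 891 and 701 on wild type arrays and 1353, 1219 and 1259 in CTLA-4 KO arrays. Every pair was higher in CTLA-4 KO, by 0.55, 0.45 and 0.83, and the difference of 0.61 ± 0.13 was the largest of the 35 genes (limma adjusted p = 0.0606, and 0.00563 with the block). Pes1 was at 576, 555 and 552 and then at 805, 768 and 738, with little spread within a group, and differed by 0.45 ± 0.12 (limma adjusted p = 0.111, and 0.0266 with the block). Bop1 was at 1461, 1456 and 1236 and then at 1789.8, 1659 and 1631, a difference of 0.29 ± 0.11 that passed neither fit.

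Rrs1, which helps bring the 5S ribonucleoprotein into the large-subunit precursor, was at 3979, 4022 and 5026 on wild type arrays and 5949, 6343 and 6119 in CTLA-4 KO arrays. Wild type array 3 was the closest to the other group, and the difference was 0.51 ± 0.11 (limma adjusted p = 0.0542, and 0.00701 with the block). This probe set is of a type that can cross-hybridise with other transcripts. A dimmer probe set of Rrs1, not of that type, was at 832, 789 and 799 and then at 1076, 1240.2 and 1239, with tight wild type arrays and a like difference of 0.54 ± 0.12. Nop16, a nucleolar protein needed for large-subunit maturation, was at 390.1, 348 and 374 and then at 462, 568 and 658. The CTLA-4 KO arrays were spread, all above wild type, and differed by 0.57 ± 0.16 (limma adjusted p = 0.119, and 0.0263 with the block).

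Nip7 and Ebna1bp2 encode factors of precursor RNA processing in large-subunit particles. Nip7 was at 1596, 1678 and 1757 on wild type arrays and 2209, 2276 and 2091 in CTLA-4 KO arrays, and Ebna1bp2 at 2026, 2118 and 1805 and then at 2918, 2601 and 2333. Both had groups that did not overlap, with a gap wide against the spread in Nip7 but not in Ebna1bp2. Their differences were 0.38 ± 0.10 and 0.39 ± 0.12, and both rose only with the block (limma adjusted p = 0.0243 and 0.0197). A dimmer probe set of each, past the filter, differed by -0.04 ± 0.17 and 0.01 ± 0.48, with overlapping groups. Nop2, a cytosine methyltransferase of the large-subunit RNA, was at 661, 759.6 and 738 and then at 917, 940.2 and 910.0, a difference of 0.35 ± 0.12 that passed neither fit. Gnl3 (nucleostemin), a nucleolar GTPase, differed by 0.34, Noc2l by 0.36 and Ftsj3, a methyltransferase-like processing factor, by 0.44, all with groups that did not overlap. Rrp1b, a nucleolar protein of large-subunit precursors, was the exception in its class, at 1965, 2029.9 and 2224 on wild type arrays and 2253, 2036 and 2424 in CTLA-4 KO. Its groups overlapped, and its difference of 0.11 had an interval of -0.13 to 0.35.

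**Figure D3:**
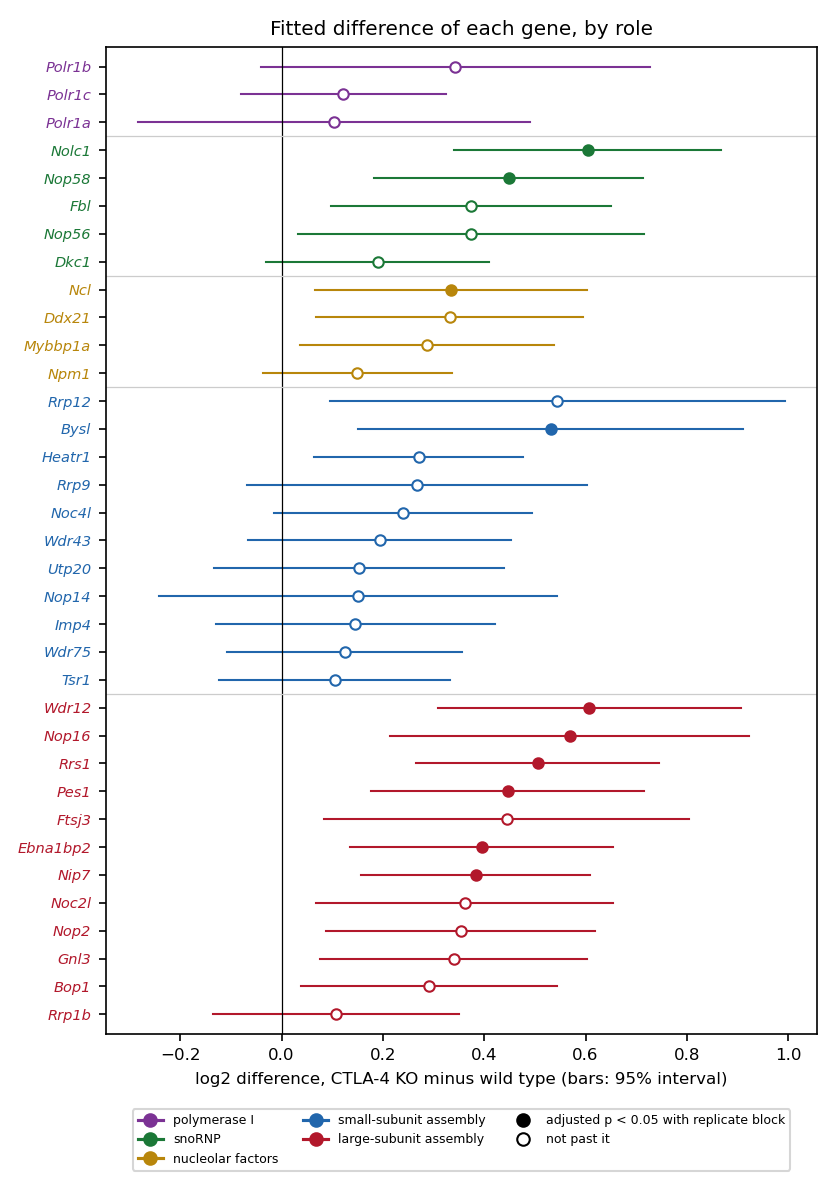
Log2 difference of each of the 35 genes with its 95% interval, ordered by role, with a filled point where the adjusted p was under 0.05 with the replicate block. The 10 filled points include 6 large-subunit genes, 2 snoRNP genes, 1 nucleolar gene and 1 small-subunit gene.

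The order of the classes varied between the pairs. Large-subunit genes had medians of 0.46, 0.35 and 0.38 in pairs 1, 2 and 3, above those of small-subunit genes in each pair, which were 0.29, 0.15 and 0.24. SnoRNP genes had 0.49, 0.15 and 0.47. The polymerase I medians of 0.12, 0.13 and 0.12 were those of Polr1c in each pair, while Polr1b differed by 0.01, 0.30 and 0.72 and Polr1a by 0.28, 0.08 and -0.05. Nucleolar genes had 0.27, 0.14 and 0.30. Genes are not replicates, and differences between the classes were not tested.

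**Figure D4:**
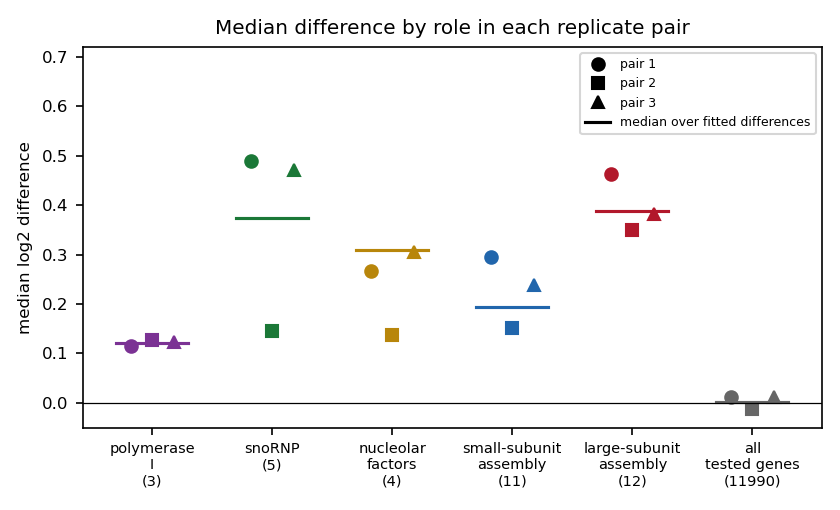
Median log2 difference within each replicate pair (symbols) and over the fitted differences (lines), for each class and for all tested genes. Large-subunit genes lie at 0.35 to 0.46 in all 3 pairs, the polymerase I median, which is Polr1c in each pair, at 0.12 to 0.13, and all tested genes near 0.

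The 35 genes were also read by 41 further probe sets, from 26 genes, of which 37 passed the filter. These are dimmer than the probe set used, by the rule, and read other stretches of the same transcripts. Of the 37, 31 had a positive difference and 6 a negative one, beside 44.2% positive among all tested probe sets, and 10 had every CTLA-4 KO array above every wild type array, beside 9.46%. By limma 2 rose, beside 0.785% of all tested probe sets (1.25% were called in either direction), and none fell. A further probe set of Bysl was at 270.4, 243 and 201 on wild type arrays and 472, 424 and 401 in CTLA-4 KO arrays, a difference of 0.83 ± 0.16 (limma adjusted p = 0.0432). A further one of Ncl was at 1116, 1038 and 855 and then at 1676, 1544 and 1577, a difference of 0.67 ± 0.13 (limma adjusted p = 0.0356). Both genes therefore had a probe set past the test, although the brighter one was not. The other 3 further probe sets of Ncl differed by 0.33, 0.03 and -0.11, so that the probe sets of this gene disagree in size and sign. The probe set that Mrto4, a factor of large-subunit assembly, shares with its pseudogenes was at 828, 509 and 515 and then at 726, 895 and 904, with overlapping groups.

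**Figure D5:**
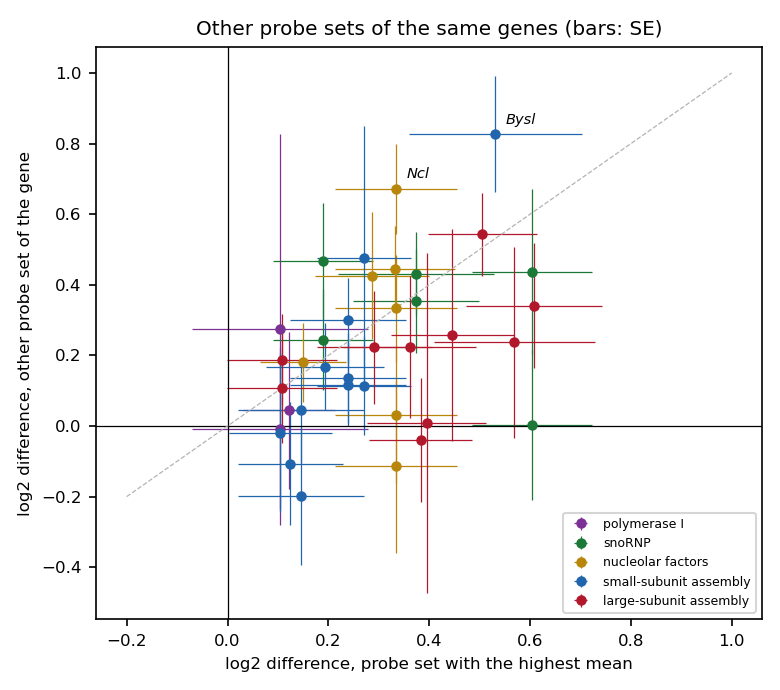
Log2 difference of each further probe set against that of the probe set used for the same gene, with SE bars and a line of equality. Most of the 37 points lie above 0, and the labelled probe sets of Bysl and Ncl passed the test.

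Other genes of the same pathway, from lists that hold none of the 36, had smaller differences at the median. Both these lists and the 36 genes were chosen with earlier results of these data known. Of 123 listed genes, 120 were tested, 107 had a positive difference and the median was 0.18. By limma 1 rose and 0 fell, where 1.19% and 0.5% of all tested genes did. At an unadjusted p of 0.05, 24 were higher and 1 lower, beside 9.42% and 7.11% of all tested genes. With the block 10 rose and 1 fell, beside 5.48% and 3.44%, so the calls by adjusted p lay near the shares over all genes. In 41 of the 120 every CTLA-4 KO array lay above every wild type array, and in 2 below, beside 12.2% and 10.6%.

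Among 13 further genes of polymerase I and its factors, 10 were positive, with a median of 0.08 and none called. Rrn3, the initiation factor of polymerase I, differed by 0.25 ± 0.13. All 11 measured of 12 further snoRNP genes were positive, with a median of 0.20. Naf1, needed to assemble H/ACA snoRNPs, was at 825, 849 and 863 on wild type arrays and 1259, 1209 and 1228 in CTLA-4 KO arrays. Its arrays barely varied within a group, and it rose by 0.53 ± 0.11 (limma adjusted p = 0.048), a call lost when any 1 array was left out (0.0953 to 0.209). Nhp2, an H/ACA core protein, rose with the block only, by 0.35.

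Of 42 further small-subunit genes, 39 were positive, with a median of 0.17. Tbl3, of the processome, was at 400.0, 353 and 405 and then at 703, 569 and 581, a difference of 0.65 ± 0.15 (limma adjusted p = 0.0612). Pno1, an RNA-binding factor of late precursors, differed by 0.50 and Rcl1, which acts in cleavage of the precursor RNA, by 0.44, and all 3 rose with the block. Of 41 measured of 42 further large-subunit genes, 37 were positive, with a median of 0.19. Rpf2, a partner of Rrs1, differed by 0.51, Ppan by 0.48, Ddx18 by 0.44 and Nmd3, the export adaptor of the large subunit, by 0.36, each past the test with the block only. The value of Rpf2 rests on a probe set marked as shared between transcripts, and without such probe sets it was -0.05. Of 13 tested of 14 RNA exosome genes, which trim the precursors, 10 were positive, with a median of 0.10 and none called.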

How the data were processed

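Per the labels' protocols, biotin-labelled cRNA from sorted T cells was read on Affymetrix arrays. The deposited table holds linear intensity values for 45101 probe sets on 6 arrays, and Partek and MAS5 are named, without versions, in the submitters' processing notes. Background correction, probe summary and scaling came before deposit and leave dim values noisy. Groups came from the sample titles, which say biological replicates without stating separate animals, so the spread that p-values measure is that between these samples only, and part of it may be technical. Xist was high in replicate 2 of both genotypes alone, so not all arrays of a group come from 1 donor.

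Values were turned into log2(intensity + 16). The 64 control probe sets were left out, and probe sets were kept where their mean log2 value was at least the 40th percentile (35.4 as an intensity floor), 27022 in all. Genotypes were compared without a block by limma 3.58.1 (R 4.3.3; lmFit, then eBayes with an intensity trend, both directions, Benjamini-Hochberg over all kept probe sets, threshold 0.05). The fit was tested on simulated data that held no pairing and larger changes than those of the biogenesis genes. That test does not show how the fit performs on changes of this size. Deviations of equally numbered arrays correlated at 0.371, 0.24 and 0.254, each over 0.1, so the numbers in the titles were taken to pair the arrays. The fit without a block ignores this pairing, and the SEs and intervals given are from that fit.

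The annotation gave 1 gene for 34958 probe sets, several for 932 and none for 9211. Each gene was read from its probe set with the highest mean. The array files name no build, so RefSeq's GRCm38.p6 table gave names (34754 probe sets matched) and promoters only. Named genes were all 36, Ctla4, the 4 with the smallest p of each pathway list, and cell markers. Mki67 and the further probe sets were picked with their values in view. The genes and lists were chosen with earlier results of these data known. Alternatives were the filter, pseudocount, normalization, moderation, array weights, replicate block, threshold, RNA integrity terms, probe set choice and leaving out arrays.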

Additional observations from a re-analysis of the deposited data

How the results depend on the processing

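With the replicate block, 10 biogenesis genes were called and 1070 of all genes, against 1 and 203 without it. Of all genes, 66 were called with no filter, 10 without the trend in eBayes, 10 with an Actb term, 29 without replicate 2 of both genotypes (the pair with high Xist, a transcript of female cells), 307 with array weights, 388 with probe sets averaged per gene and 474 at an adjusted p of 0.1. Leaving out single arrays gave 39 (without CTLA-4 KO array 2) to 146. Of the biogenesis genes, limma called 0 with no filter, without the trend, with the Actb term and without replicate 2 of both genotypes, where 22, 17, 16 and 16 had an unadjusted p under 0.05. It called 3 (Nolc1, Rrs1 and Wdr12) with the 60th percentile filter, median centring, array weights, the Gapdh term and an adjusted p of 0.1, and 5 with the mean of probe sets (Bysl, Ddx21, Nop58, Rrs1 and Wdr12). Leaving out single arrays gave 0 to 1, which was Rrs1 without wild type array 3. Nolc1 was called in 10 of 21 alternatives (adjusted p 0.003 to 0.382).

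The median log2 difference of the biogenesis genes was 0.39 with median centring, which moved the median of all genes to 0.06, and 0.28 to 0.36 under the other alternatives. Signs turned for Imp4 (-0.0031) and Cd8a (-0.0905) with the mean of probe sets, Rpf2 (-0.047) and Cd8a (-0.41) without cross-hybridising probe sets, and with single arrays left out, where Polr1a spanned -0.062 to 0.26, Nop14 -0.026 to 0.30, Cd8a -0.21 to 0.56 and Ms4a1 -0.40 to 0.23. Polr1a and Nop14 turned without CTLA-4 KO array 1. Of 734 values of single biogenesis genes, 695 kept direction and side of the threshold, 25 newly passed, 11 no longer passed and 3 reversed. Since only Nolc1 passed in the fit without a block, staying uncalled counted as the same side for every other gene. The 11 values that no longer passed were thus all of Nolc1. The causes were not tested.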

Other observations

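Genes of the ribosomes themselves were read in the same arrays. Of 46 tested of 49 cytosolic ribosomal protein genes, 40 had a positive log2 difference, beside 50.3% of all tested genes. Their median difference was 0.06, and 0.12, -0.17 and 0.22 in pairs 1, 2 and 3. Only 8 of the 46 were higher in all 3 pairs, beside 23.3% of all tested genes. In 4 every CTLA-4 KO array lay above every wild type array, beside 12.2%, and 2 rose, where 1.19% of all tested genes did. Rpl14, of the large subunit, was at 983, 1002 and 951 on wild type arrays and 1318, 1499 and 1547 in CTLA-4 KO arrays, with groups far apart, a difference of 0.56 ± 0.11 (limma adjusted p = 0.047). Rps27l, a close relative of the small-subunit gene Rps27, rose by 0.60 ± 0.12 (limma adjusted p = 0.0381). Many ribosomal protein genes have pseudogenes, and their probe sets, shared between genes, are not counted here.

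Of 76 mitochondrial ribosomal protein genes, which serve translation inside mitochondria, 69 were positive, with a median of 0.19, and in 30 every CTLA-4 KO array lay above every wild type array, beside 12.2% of all tested genes. Mrps28 rose, from 484 ± 34.9 to 789 ± 68.2 (n = 3 arrays a group), by 0.69 ± 0.13 (limma adjusted p = 0.0385), and it was the only 1 of the 76 called without the block, near the 1.19% over all tested genes. With the replicate block 11 of the 76 rose, beside 5.48%. The calls of Rpl14, Rps27l and Mrps28 were each lost when any 1 array was left out. Of 10 snoRNA host genes, 7 were positive, with a median of 0.15 and none called by limma (0 at an unadjusted p of 0.05).

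A large-subunit gene moved the other way. Mdn1, the giant ATPase that strips assembly factors from large-subunit precursors, was at 2965 ± 679 on wild type arrays and 2109 ± 204 in CTLA-4 KO arrays (n = 3 a group). Its log2 difference was -0.47, and it fell with the block only (limma adjusted p = 0.174, and 0.0121 with the block). It falls outside the naming rule and was chosen after its values were seen.

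Control probe sets for 18S ribosomal RNA overlapped between the groups. The 5' one stood at 16451 ± 2435 on wild type arrays and 14798 ± 1877 in CTLA-4 KO (n = 3 a group). The middle one stood at 6168 ± 537 and 5847 ± 924, and the 3' one at 5901 ± 1423 and 6373 ± 271. The arrays had equal RNA input and were scaled to equal trimmed means, so these values do not measure ribosomal RNA per cell.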
